A study of Mus musculus with 13 samples.

Results

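The 10 genes described here encode the transporters, channels and enzymes by which resting astrocytes serve their neighbors, and they were followed by RNA-Seq in the midbrains of 13 male mice. They are Slc1a2, Slc1a3, Aqp4, Kcnj10, Gja1, Gjb6, Glul, Aldoc, Aldh1l1 and Slc4a4, chosen by symbol for their known function from the 49315 genes counted in each library. All mice were Ripk3fl/fl, were 8 to 12 weeks old, were on a C57BL/6J background and had received tamoxifen (60 mg/kg on 5 days). Cre+ mice carried Aldh1l1-Cre/ERT2, a recombinase active in astrocytes after tamoxifen that deletes the kinase gene Ripk3 there, and Cre- littermates lacked it. Mice received MPTP, a toxin of dopaminergic neurons, at 20 mg/kg on each of 5 days, or Saline, and tissue was taken 3 days later. The groups held 3 Cre- Saline, 3 Cre- MPTP, 3 Cre+ Saline and 4 Cre+ MPTP mice, 1 library per animal. Whole midbrain holds neurons, oligodendrocytes, microglia and vessels beside astrocytes, and the recombinase is driven by the regulatory sequence of one of the 10 genes, Aldh1l1.

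Astrocytes clear glutamate from the synapse through the transporters GLT-1 (Slc1a2) and GLAST (Slc1a3), and glutamine synthetase (Glul) turns it into glutamine, which neurons take back up. The potassium channel Kir4.1 (Kcnj10) buffers potassium, the bicarbonate cotransporter NBCe1 (Slc4a4) buffers pH, and the water channel aquaporin-4 (Aqp4) lines the end-feet on vessels. Connexin 43 (Gja1) and connexin 30 (Gjb6) couple astrocytes into a network by gap junctions. Aldolase C (Aldoc) is a glycolytic enzyme, and Aldh1l1 is a folate enzyme that serves as a marker of astrocytes. When astrocytes become reactive they raise genes such as Gfap, and whether they keep the homeostatic genes differs between injuries.

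Libraries held 11489150 to 29397278 counts assigned to genes, with a median of 24907639, and each of the 10 genes had at least 751 counts in every library. All 10 passed the filter on low counts together with 19360 genes in all. Counts of the targeted gene Ripk3 were 4 to 11 in Cre- Saline, 6 to 40 in Cre- MPTP, 6 to 10 in Cre+ Saline and 4 to 19 in Cre+ MPTP libraries, too few to check the genotype of single mice. The summed level of 6 markers of dopaminergic neurons was 281 to 592 CPM (a gene's share of the counts of its library, scaled by TMM), so the marker genes of the labeled region were present in every library. Cre- MPTP replicate 1 stood apart: it had the lowest total, 21101 genes with a count against 25432 to 27186 in the others, 1.12% of counts from mitochondrial genes against 3.55 to 6.06%, and a TMM factor of 0.804 against 1.005 to 1.042. Cre+ MPTP replicate 4 had 5490 CPM summed over 5 muscle genes, against at most 123 CPM elsewhere, and Cre+ Saline replicates 1 and 3 had 605 and 445 CPM over 4 pituitary genes, against at most 81.9 CPM elsewhere. Cre- Saline replicate 1 had 45.3 CPM over 3 forebrain neuron genes, against at most 8.56 CPM elsewhere. Results below are therefore given with and without Cre- MPTP replicate 1 where it moved them.

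The genes lie on 9 chromosomes (GRCm38). The glutamate transporter genes are Slc1a2 (ENSMUSG00000005089, chr2:102658659-102790784) and Slc1a3 (ENSMUSG00000005360, chr15:8634124-8710764), and Glul (ENSMUSG00000026473) is at chr1:153899944-153909723. Kcnj10 (ENSMUSG00000044708) shares that chromosome, at chr1:172341210-172374085, Slc4a4 (ENSMUSG00000060961) is at chr5:88886818-89239653 and Aqp4 is ENSMUSG00000024411. The connexin genes are Gja1 (ENSMUSG00000050953, chr10:56377300-56390419) and Gjb6 (ENSMUSG00000040055, chr14:57123303-57133611), and the enzymes Aldoc (ENSMUSG00000017390, chr11:78322968-78327781) and Aldh1l1 (ENSMUSG00000030088, chr6:90486427-90600203). Counts cover the exons of each gene, and no gene that overlaps one of them had more than 64 counts in a library.

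In TMM-scaled CPM, Gjb6 and Aldh1l1 had higher values in every Cre- MPTP than in every Cre- Saline library, and the other connexin gene, Gja1, had lower ones; this held for Gja1 and Aldh1l1 but not Gjb6 in CPM by total counts, and for none of the 3 in TPM. The 250 bases before the annotated transcription start of these 3 genes are shown for that reason, from RefSeq (GRCm38.p6), 5′ to 3′ on the strand of the gene. Aldh1l1 lies at chr6:90550543-90550792 (plus strand), inside the gene's longest annotated span, Gjb6 at chr14:57133612-57133861 (minus strand) and Gja1 at chr10:56377050-56377299 (plus strand). Capitals mark a match to 1 of 7 motifs on either strand.
Aldh1l1: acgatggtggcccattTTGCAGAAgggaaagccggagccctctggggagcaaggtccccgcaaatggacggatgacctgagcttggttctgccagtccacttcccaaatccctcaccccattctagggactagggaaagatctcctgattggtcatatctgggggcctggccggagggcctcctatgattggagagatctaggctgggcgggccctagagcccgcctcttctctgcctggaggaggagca
Gjb6: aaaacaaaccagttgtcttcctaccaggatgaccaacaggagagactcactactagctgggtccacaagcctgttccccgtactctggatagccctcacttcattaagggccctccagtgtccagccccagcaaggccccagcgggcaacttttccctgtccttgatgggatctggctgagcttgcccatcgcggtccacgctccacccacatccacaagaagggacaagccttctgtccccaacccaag
Gja1: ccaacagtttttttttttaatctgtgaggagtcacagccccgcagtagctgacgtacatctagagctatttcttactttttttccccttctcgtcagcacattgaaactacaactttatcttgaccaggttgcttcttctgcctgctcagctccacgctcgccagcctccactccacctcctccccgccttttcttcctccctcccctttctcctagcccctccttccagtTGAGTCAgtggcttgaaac
The motifs were STAT (TTCNNNGAA), AP-1 (TGANTCA), C/EBP (TTGCNNAA), a glucocorticoid receptor half-site (AGAACA), an NFI half-site (TTGGCA), SOX (ACAATG) and the TATA box (TATAAA). The Aldh1l1 window held a C/EBP match, a motif found in 9.56% of 32851 windows of this length. The Gja1 window held an AP-1 match, found in 6.75% of windows, and the Gjb6 window held none of the 7. Among the other 8 windows of the 9 genes with an entry, Slc1a2 and Kcnj10 held a C/EBP match, Kcnj10 and Slc1a3 a glucocorticoid receptor half-site (16.1% of windows), and Slc1a3 and a window of Aldoc a STAT match (7.02%). Slc1a3 also held a TATA match (12.4%) and the other Aldoc window an NFI half-site (12.3%), Glul and Slc4a4 held none of the motifs, and no window held the SOX letters (10.7%). The Gjb6 and Aldh1l1 windows shared no motif of this set.

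Levels were first compared between the genes as TPM, a scale that corrects for exon length and library size, in Cre- Saline midbrain. Glul was the most abundant, at 2139 ± 121 TPM (SD, n = 3), followed by Aldoc at 1554 ± 137 TPM. The 3 Glul values lay above all Aldoc values, and both genes lay above the remaining 8. Slc1a2 (313 TPM), Kcnj10 (301 TPM) and Gja1 (296 TPM) came next and overlapped with their neighbors in this order. Aqp4 had 172 TPM, below every Gja1 value, and overlapped with Gjb6 at 123 TPM, which overlapped with Slc1a3 at 112 TPM. Slc4a4 at 105 TPM and Aldh1l1 at 65.5 TPM closed the order, again with overlapping ranges. Glul ranked 1 and Aldoc 2 in all 13 libraries, and Slc1a2 ranked 3 or 4 in each.

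**Figure D1:**
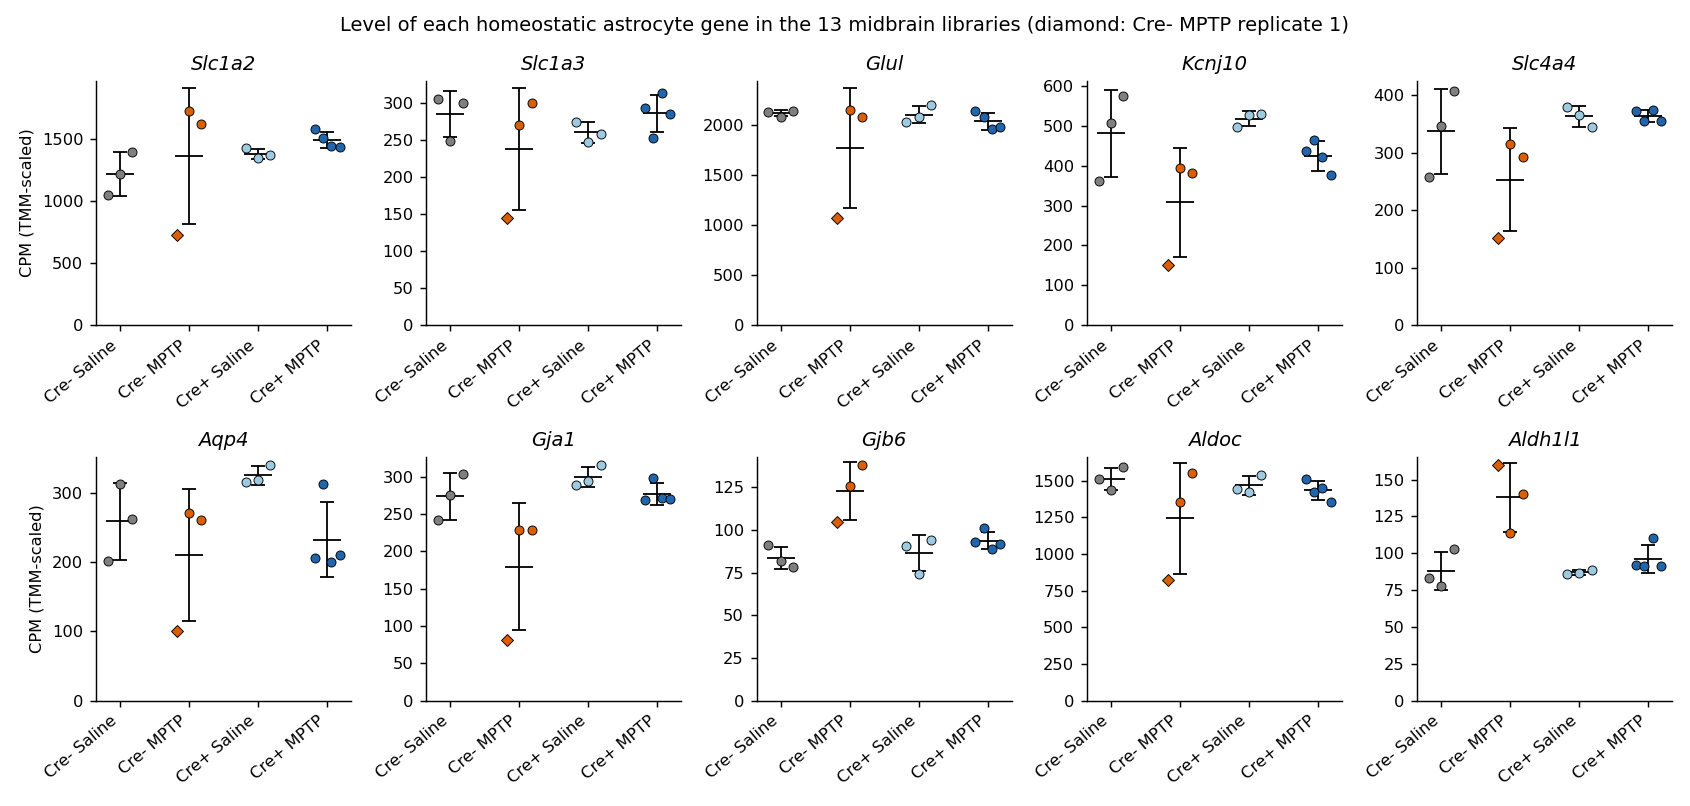
Each panel plots the TMM-scaled CPM of 1 gene (y axis, from 0) in the 4 groups (x axis). Points are libraries, the bars are the mean and SD, and the diamond is Cre- MPTP replicate 1, which is the lowest of the 13 libraries for 8 of the 10 genes but the highest for Aldh1l1.

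MPTP treatment of Cre- littermate controls, in which astrocytes keep Ripk3, asked how the homeostatic genes respond to toxin injury. By edgeR with TMM scaling Aldh1l1 was the 1 gene of the 10 that changed, rising 1.57-fold, where 3.18% of the 19360 genes tested changed in either direction. Gjb6 had a fold of 1.47 that missed the threshold with all libraries and passed it without Cre- MPTP replicate 1, as did Slc1a2. At an unadjusted p under 0.05 there were 3 of the 10, against 15.0% of all genes, and without that library 3 were called, against 9.38%. None of the 10 was called lower by edgeR, while limma voom, which called 13.6% of all genes, called Kcnj10 (-0.40, adjusted p = 0.0191) and Gja1 (-0.29, adjusted p = 0.0398) lower. With total counts in place of TMM, edgeR called none of the 10 and 2.95% of all genes. The median log2 fold change of the 10 was -0.27, against 0.03 over all genes tested, and it was 0.00 without Cre- MPTP replicate 1. In these bulk samples, fewer astrocytes and less RNA per astrocyte cannot be told apart.

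Aldh1l1, the folate enzyme, had 83.0, 78.0 and 103 CPM in the Cre- Saline libraries and 160.1, 114 and 140.0 CPM in the Cre- MPTP libraries. Every treated library lay above every Saline library on this scale. In TPM the groups overlapped, since Cre- MPTP replicate 1 had 78.29 TPM and Cre- Saline replicate 3 had 79.94 TPM. On the log2 scale the difference was 0.65 with an SE of 0.154, and the edgeR quasi-likelihood p after Benjamini-Hochberg adjustment was 0.0403. With total counts in place of TMM the difference was 0.55 and was not called (edgeR adjusted p = 0.084). The rise was also called with any of 4 libraries left out, namely Cre- MPTP replicate 1 (0.53, adjusted p = 0.0175 by edgeR) or replicate 2 (0.76), Cre- Saline replicate 3 (0.77) and Cre+ MPTP replicate 3 (0.65). It was not called when any of the other 9 libraries was left out, with a log2 fold change of 0.56 without Cre- Saline replicate 2, 0.61 without Cre- Saline replicate 1 and 0.64 without each of Cre- MPTP replicate 3, the 3 Cre+ Saline libraries and Cre+ MPTP replicates 1, 2 and 4, and adjusted p-values of up to 0.226. The direction was thus the same in every such fit, with the adjusted p on either side of 0.05.

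Gjb6, connexin 30, had 91.0, 81.5 and 78.1 CPM in Cre- Saline and 105, 126 and 138 CPM in Cre- MPTP libraries, without overlap on this scale. In TPM, Cre- MPTP replicate 1 had 101.8 and lay below all 3 Saline libraries (120.7 to 126.5), while the other 2 MPTP libraries lay above them (197.8 and 213.7). It was higher by 0.56 on the log2 scale (SE 0.14) with an edgeR adjusted p of 0.0538, and 0.66 (adjusted p = 0.00153) without Cre- MPTP replicate 1. With total counts in place of TMM it was 0.49 (edgeR adjusted p = 0.257). For Gja1, connexin 43, the partner of Gjb6 in astrocyte gap junctions, the values were 242, 275 and 304 CPM in Cre- Saline and 81.4, 229 and 228 CPM in Cre- MPTP. These groups did not overlap either, with Gja1 lower after MPTP, but the log2 fold change of -0.60 (SE 0.288) did not pass (edgeR adjusted p = 0.345) and was -0.25 (SE 0.0931, adjusted p = 0.11) without Cre- MPTP replicate 1. In all, the values of 3 of the 10 genes did not overlap between these groups, 2 higher and 1 lower, where 15.1% of the genes tested did not overlap. With total counts these were 2 of the 10 (14.9% of all genes), and in TPM 0 of the 10 (13.6%).

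By edgeR the glutamate transporters gave no call with all libraries, and limma voom called Slc1a2 higher (0.42, adjusted p = 0.00312). Slc1a2, the main glutamate transporter of the adult forebrain, had 1046, 1214 and 1398 CPM in Cre- Saline and 729, 1726 and 1625 CPM in Cre- MPTP libraries. Replicate 1 was thus below and replicates 2 and 3 above every Saline value. Its log2 fold change was 0.16 (SE 0.25, edgeR adjusted p = 0.787) with all libraries and 0.46 (SE 0.102, adjusted p = 0.012) without Cre- MPTP replicate 1. Slc1a3 had 306, 249 and 300.5 CPM in Saline and 145, 270.5 and 301 CPM in MPTP libraries. Outside replicate 1 the ranges of Slc1a3 overlapped, and without it the log2 fold change was 0.00 (SE 0.11). Glul, which makes glutamine, had 2086 to 2146 CPM in Cre- Saline and 1076, 2157 and 2086 CPM in Cre- MPTP libraries, with a log2 fold change of 0.00 (SE 0.0744) without replicate 1.

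Genes of potassium, acid-base and water transport had log2 fold changes below 0, none of them called by edgeR and Kcnj10 called lower by limma voom. Kcnj10 had 361, 508 and 575 CPM in Cre- Saline and 151, 394 and 381 CPM in Cre- MPTP libraries. Its ranges overlapped through Cre- Saline replicate 1, and its log2 fold change was -0.64 (SE 0.29, edgeR adjusted p = 0.329), and -0.31 (SE 0.148, adjusted p = 0.219) without Cre- MPTP replicate 1. Slc4a4 had 258, 346 and 407 CPM in Saline and 151, 316 and 292 CPM in MPTP libraries, a log2 fold change of -0.41 (SE 0.236). With 1 library left out it ran from -0.60 to -0.14. Aqp4 had 202, 313 and 262 CPM in Saline and 100.5, 270.5 and 260.3 CPM in MPTP libraries, with a log2 fold change of -0.30 that was 0.04 without replicate 1. Aldoc had 1436 to 1592 CPM in Cre- Saline and 820.5, 1358 and 1554 CPM in Cre- MPTP libraries, a log2 fold change of -0.28 (SE 0.19) that was -0.05 without replicate 1. For Kcnj10, Slc4a4 and Aqp4 the 2 remaining MPTP libraries lay within the Saline range, and for Aldoc 1 of them did.

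The position of Cre- MPTP replicate 1 was not the same for all astrocyte genes. Against the mean of Cre- MPTP replicates 2 and 3, 8 of the 10 genes stood at 35.6 to 56.3% there, Gjb6 at 79.4% and Aldh1l1 at 126%. The median over all genes tested was 86.1%. Such low values were common in this library: 17.1% of all genes tested stood at or below Gja1, the lowest of the 8. The share was 33.5% for Aldoc, the highest of the 8, 46.9% for Gjb6 and 64.1% for Aldh1l1. Among 22 other genes typical of resting astrocytes, 13 stood above 100% and 6 under 60%, with a median of 178%. At the high end were Btbd17 (762%) and Apoe (578%), and at the low end Slc39a12 (25.5%) and Slc15a2 (29.0%). The 10 genes summed to 3520 CPM in this library and to 6230 to 7170 CPM in the other 12. The 22 other genes summed to 16100 CPM there against 5720 to 8000 CPM elsewhere, and without Apoe to 4560 CPM, inside the 3810 to 5340 CPM of the other libraries. The part of this library's low gene number and low mitochondrial share in these values was not tested.

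**Figure D2:**
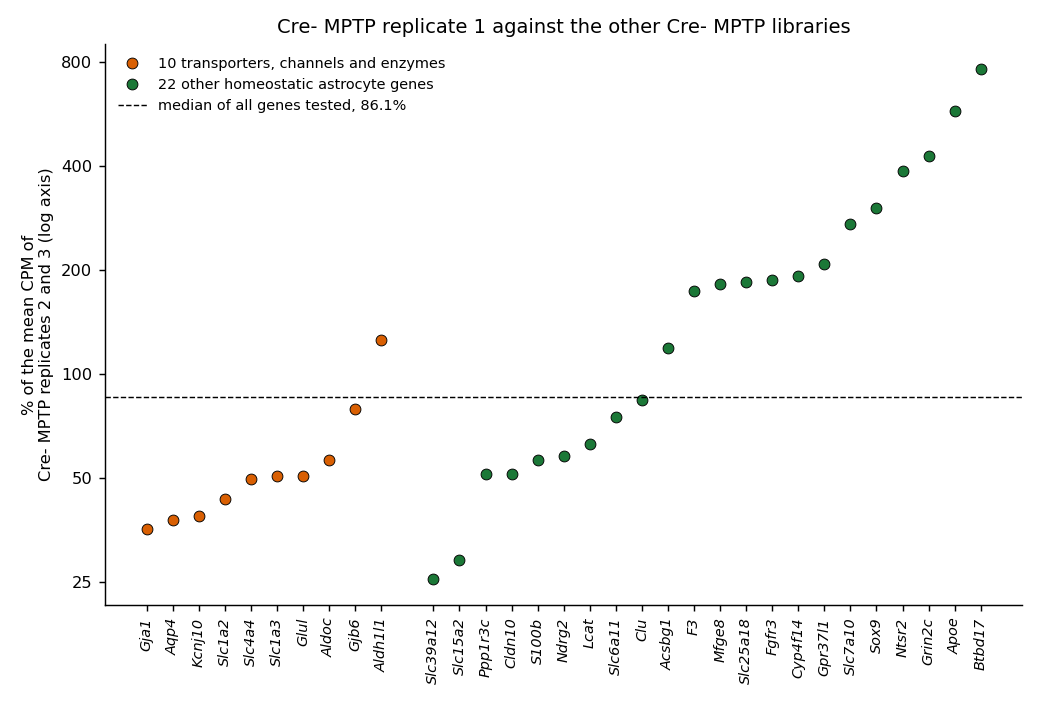
Each point is 1 gene, and the y axis (log scale) gives its CPM in Cre- MPTP replicate 1 as a percent of the mean of Cre- MPTP replicates 2 and 3. The 10 homeostatic genes range from 35.6% (Gja1) to 126% (Aldh1l1) and the 22 other homeostatic astrocyte genes from 25.5% to 762%, and the dashed line is the median of all genes tested.

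In Cre+ mice, which lose Ripk3 in astrocytes, the same comparison of MPTP with Saline called none of the 10 genes, and edgeR called none of the 19360 genes (0.0%), although 672 (3.47%) had an unadjusted p under 0.05. DESeq2 called 75 genes higher and 8 lower over all libraries, and 204 higher and 116 lower of 18502 on the 2 groups alone. Limma voom called 183 and 111. By edgeR none of the 10 had an unadjusted p under 0.05. Their log2 fold changes ran from -0.48 to 0.14 with a median of -0.01, against 0.00 over all genes. Aldh1l1 had 85.8, 86.9 and 88.8 CPM in Cre+ Saline and 92.3, 91.3, 111 and 91.2 CPM in Cre+ MPTP libraries. Gjb6 had 90.8, 74.3 and 94.1 CPM in Saline and 93.0, 101, 88.9 and 91.8 CPM in MPTP libraries. Aldh1l1 was higher in each treated library by a small step (log2 fold change 0.14, SE 0.144), and the Gjb6 ranges overlapped (0.12, SE 0.131).

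Aqp4 and Kcnj10 were the 2 genes whose Cre+ MPTP values all lay below the Cre+ Saline values. Aqp4 had 316, 319 and 339.9 CPM in Saline and 206, 313, 200.5 and 210.3 CPM in MPTP libraries, and its log2 fold change was -0.48 (SE 0.291). Cre+ MPTP replicate 2 was close to the Saline libraries and the other 3 were near 200 CPM. Kcnj10 had 497, 527 and 531 CPM in Saline and 438, 464, 422 and 376 CPM in MPTP libraries, a log2 fold change of -0.29 (SE 0.269). Slc1a2 lay above its Saline values in all 4 treated libraries, with 1349 to 1426 CPM in Saline and 1438 to 1577 CPM in MPTP (log2 fold change 0.11, SE 0.234). In total 4 of the 10 genes did not overlap between these groups, where 9.66% of all genes tested did not. In TPM the groups did not overlap for Aqp4, Kcnj10 and Gja1, all lower, and they overlapped for Slc1a2 and Aldh1l1. By edgeR the adjusted p was 1.0 for each of the 10. Of these genes limma voom called Aqp4 lower (adjusted p = 0.029) and DESeq2 on the 2 groups alone called Kcnj10 lower (adjusted p = 0.0199). Without Cre+ MPTP replicate 4, the library with muscle RNA, the log2 fold changes were -0.44 for Aqp4 and -0.24 for Kcnj10.

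The remaining 5 genes overlapped between Cre+ Saline and Cre+ MPTP midbrain. Gja1 had 289 to 315 CPM in Saline and 268 to 298 CPM in MPTP libraries, and Slc1a3 had 248 to 275 and 253 to 313 CPM. Glul ranged from 2035 to 2201 CPM in Saline and from 1962 to 2141 CPM in MPTP, and Aldoc from 1424 to 1541 and from 1353 to 1512 CPM. Slc4a4 had 344 to 380.3 CPM in Saline and 355 to 375 CPM in MPTP libraries, with a log2 fold change of 0.00 (SE 0.22), the smallest of the 10.

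**Figure D3:**
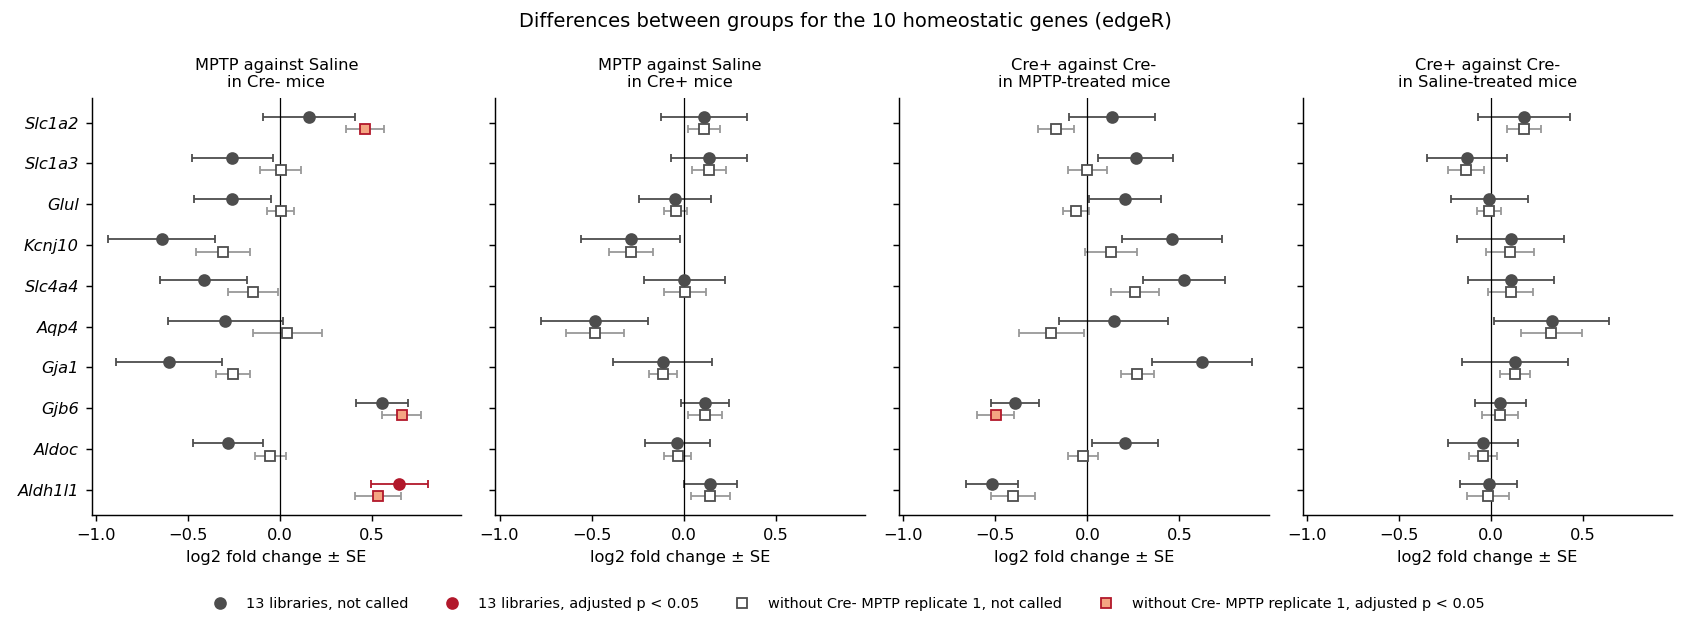
Log2 fold change with its SE (x axis) of the 10 genes in the 4 comparisons of 2 groups. Circles are the fit to 13 libraries and squares the fit without Cre- MPTP replicate 1, and red or orange symbols passed an adjusted p of 0.05: Aldh1l1 with all libraries, and Slc1a2, Gjb6 and Aldh1l1 (Cre- mice) and Gjb6 (MPTP-treated mice) without that library.

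The effect of astrocytic Ripk3 loss under MPTP was addressed by comparing Cre+ MPTP with Cre- MPTP midbrain. In TMM-scaled CPM, Gjb6 and Aldh1l1 had lower values in every Cre+ MPTP than in every Cre- MPTP library, and Gja1 and Slc4a4 higher ones, but none of the 10 genes was called with all libraries, where 1.54% of the genes tested were. At an unadjusted p under 0.05 there were 4, against 19.0% of all genes. DESeq2 over all libraries (4.31% of all genes called) and limma voom (6.32%) each called Gjb6 and Aldh1l1. These 4 genes whose values did not overlap compare with 11.3% of all genes tested. In TPM the values of Gja1 and Slc4a4 still did not overlap (9.58% of all genes), and those of Gjb6 (101.8 to 213.7 TPM in Cre- MPTP, 133.8 to 151.4 TPM in Cre+ MPTP) and Aldh1l1 (78.29 to 109.0 and 66.78 to 87.56 TPM) did. The log2 fold change was -0.52 for Aldh1l1 (SE 0.143, edgeR adjusted p = 0.119) and -0.39 for Gjb6 (SE 0.13, adjusted p = 0.181). Without Cre- MPTP replicate 1, Gjb6 was the 1 of the 10 that passed, where 3.18% of all genes did (-0.50, SE 0.1, edgeR adjusted p = 0.0149) and Aldh1l1 did not (-0.40, adjusted p = 0.105), and without Cre- MPTP replicate 2 Aldh1l1 passed (-0.63, adjusted p = 0.0343). Without Cre+ MPTP replicate 4 the values were -0.38 for Gjb6 and -0.48 for Aldh1l1, neither called.

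For Gja1 the Cre+ MPTP values of 268, 298, 271 and 269.7 CPM lay above the 81.4, 229 and 228 CPM of Cre- MPTP midbrain (log2 fold change 0.62, SE 0.272, edgeR adjusted p = 0.246). Slc4a4 had 372, 355, 375 and 355 CPM against 151, 316 and 292 CPM (0.52, SE 0.223). Both differences were smaller without Cre- MPTP replicate 1, at 0.27 (SE 0.0888) and 0.26 (SE 0.13). The other 6 genes overlapped between these groups, with log2 fold changes of 0.13 for Slc1a2, 0.26 for Slc1a3, 0.14 for Aqp4, 0.46 for Kcnj10, 0.20 for Glul and 0.21 for Aldoc, and without that library of -0.17, 0.00, -0.20, 0.13, -0.06 and -0.03 in the same order. The median of the 10 went from 0.20 to -0.04 with its removal, against 0.03 over all genes with it. Since the Cre- MPTP libraries also stand in the comparison of MPTP with Saline, these differences are not independent of the ones given for Cre- mice.

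Genotype was compared without toxin in Cre+ Saline and Cre- Saline midbrain. None of the 10 genes was called, and edgeR called none of the 19360 genes (0.0%), with 176 (0.909%) at an unadjusted p under 0.05 of which none was among the 10. DESeq2 called 2 genes over all libraries, and 16 higher and 3 lower on the 2 groups alone. Limma voom called 3, and none of the 10 was among any of these. Aldh1l1, whose regulatory sequence drives the recombinase, had 87.2 ± 1.56 CPM (SD, n = 3) in Cre+ Saline and 88.0 ± 13.2 CPM (SD, n = 3) in Cre- Saline libraries, a log2 fold change of -0.01 (SE 0.154). Aqp4 was the 1 gene of the 10 without overlap, at 316 to 339.9 CPM in Cre+ Saline against 202 to 313 CPM in Cre- Saline (log2 fold change 0.33, SE 0.313), where 11.6% of all genes did not overlap. The SEs of the 10 genes ran from 0.139 to 0.313. The spread was wider in Cre- Saline than in Cre+ Saline midbrain for Slc1a2 (SD of 176 against 39.7 CPM), Kcnj10 (110 against 18.8 CPM) and Slc4a4 (74.7 against 18.2 CPM). It was also wider for Aqp4 (55.7 against 13.1 CPM), Gja1 (30.9 against 13.8 CPM), Slc1a3 (31.3 against 13.7 CPM), Aldoc (78.3 against 63.2 CPM) and Aldh1l1. Only Glul (31.2 against 85.4 CPM) and Gjb6 (6.67 against 10.6 CPM) had a narrower spread. Cre- Saline replicate 1, the library with the most forebrain neuron RNA, was the lowest of its group for Slc1a2, Kcnj10, Slc4a4, Aqp4 and Gja1. For Gja1 it had 241.7 CPM against 275.3 and 303.5 CPM. It was the highest of its group for Slc1a3 and Gjb6. The part of that RNA in these values was not tested.

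The interaction term, which tests whether the MPTP effect differs between the genotypes, was called for none of the 10 genes and for 2 of 19360 genes (0.0103%). Its log2 value was -0.50 for Aldh1l1 (SE 0.21) and -0.44 for Gjb6 (SE 0.191), each with an edgeR adjusted p of 0.795. These were the 2 of the 10 with an unadjusted p under 0.05, a level reached by 5.76% of all genes. For this term limma voom called Gjb6 and DESeq2 called neither. The term was 0.49 for Gja1 (SE 0.394), 0.42 for Slc4a4 (SE 0.323) and 0.39 for Slc1a3 (SE 0.299), also not called. These 3 terms depended on single libraries. Leaving out 1 at a time gave 0.14 to 0.70 for Gja1, 0.15 to 0.60 for Slc4a4 and 0.13 to 0.60 for Slc1a3. Without Cre- MPTP replicate 1 the Gjb6 term was -0.54 (SE 0.14, adjusted p = 0.0946 by edgeR). In that same fit the Aldh1l1 term shrank to -0.39 (edgeR adjusted p = 0.377). A difference of the MPTP effect between genotypes was therefore not shown for any of the 10 genes.

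Because Gjb6 and Gja1 lay on opposite sides of Saline in Cre- MPTP midbrain in TMM-scaled CPM, their ratio within each library, per kilobase of exon, is given as a description chosen after the values were seen. The ratio of Gjb6 to Gja1 was 0.515, 0.405 and 0.352 in Cre- Saline and 1.76, 0.75 and 0.826 in Cre- MPTP libraries. It was 0.43, 0.346 and 0.409 in Cre+ Saline and 0.475, 0.462, 0.449 and 0.466 in Cre+ MPTP libraries. All 3 Cre- MPTP libraries lay above the other 10, including the 2 that remain without replicate 1. In Cre+ mice every MPTP library also lay above every Saline library. The mean log2 ratio was higher with MPTP by 1.3 in Cre- and by 0.235 in Cre+ mice. The ratio of the glutamate transporters, Slc1a3 to Slc1a2, was 0.451, 0.316 and 0.331 in Cre- Saline, 0.305, 0.241 and 0.285 in Cre- MPTP, 0.283 to 0.297 in Cre+ Saline and 0.258 to 0.333 in Cre+ MPTP libraries. The Cre- MPTP values were below all Cre- Saline values but overlapped with both Cre+ groups. All Cre+ Saline values of this ratio also lay below all Cre- Saline values.

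**Figure D4:**
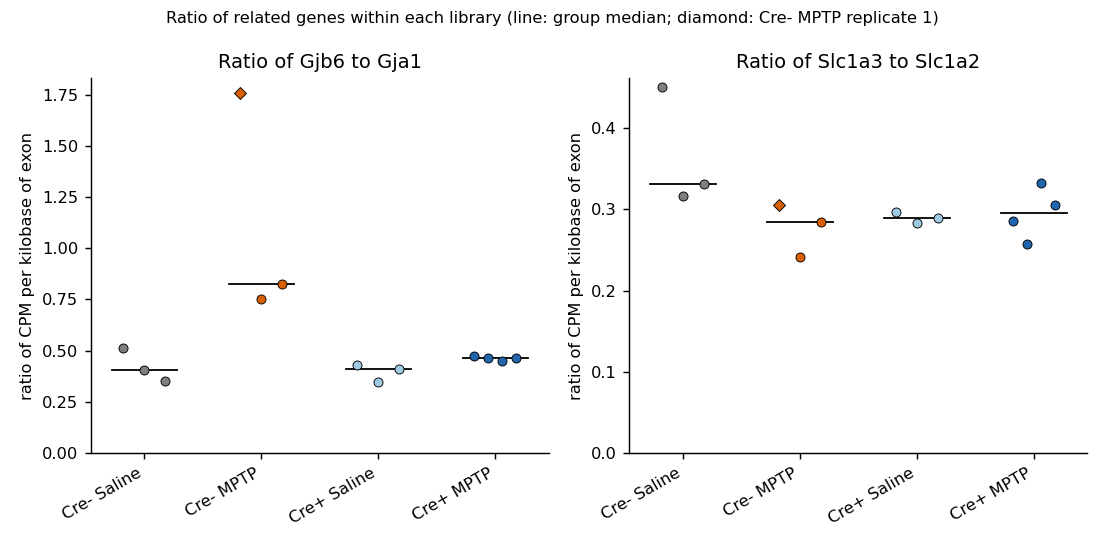
Ratio of Gjb6 to Gja1 (left) and of Slc1a3 to Slc1a2 (right), in CPM per kilobase of exon, for each library by group, with the group median as a line and Cre- MPTP replicate 1 as a diamond. For Gjb6 to Gja1, the Cre- MPTP libraries sit at 0.75 to 1.76 and all others at 0.346 to 0.515. Among these others the Cre+ MPTP libraries (0.449 to 0.475) lie above the Cre+ Saline libraries (0.346 to 0.43).

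How alike the 10 genes were across libraries depended on Cre- MPTP replicate 1. Over the 13 libraries the median Pearson r of log2 CPM among the 45 pairs was 0.756, and without this library it was 0.019. The highest pair was Kcnj10 with Gja1, at 0.966 with all libraries and 0.835 without replicate 1. Gjb6 and Aldh1l1 were most like each other (0.64, and 0.722 without replicate 1), and both had a negative r with Gja1 (for Aldh1l1 -0.758, and -0.534 without replicate 1, for Gjb6 -0.363 and -0.704). Glul and Aldoc were each other's nearest in both sets (0.965 and 0.472). Over the 13 libraries genes outside the 10 with the highest r to their mean profile were Prickle2 (0.985), Ap3s2 (0.985), Washc5 (0.983) and Taf1 (0.983), and without replicate 1 they were Gli2, Trappc10, Frg2f1, Zkscan5 and Zfp94 (0.868 to 0.922). The points share library and group, so these values describe the libraries and carry no test.

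The neighbors of these genes in their pathways were read from 7 lists of 104 genes, all of which passed the filter. With MPTP in Cre- mice, 2 of the 104 rose and 6 fell, against 2.23% and 0.956% of all genes tested, and without Cre- MPTP replicate 1 6 rose and 18 fell, against 5.14% and 4.25%. In the glutamate and glutamine cycle (16 genes) 2 fell and none rose, and both encode glutamine carriers. Slc38a3, the glutamine exporter SN1 of astrocytes, fell by 0.89 in log2 units (edgeR adjusted p = 0.0156, SE 0.178), with 88.2 to 110 CPM in Saline and 37.6 to 64.4 CPM in MPTP libraries. Slc38a5, a related carrier, fell by 2.33 (SE 0.349, adjusted p = 0.0029 by edgeR), from 3.61 to 6.48 CPM down to 0.911 to 1.22 CPM. The Slc38a5 and Slc38a3 levels of all Cre+ Saline and Cre+ MPTP libraries lay above those of Cre- MPTP. The lower level of Slc38a5 was called whichever library was left out, and that of Slc38a3 was not called without Cre- Saline replicate 2 (-0.91) or replicate 3 (-0.80).

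Among 14 genes of water channel anchoring and end-feet, the cation channel gene Trpv4 rose by 1.85 (SE 0.253, edgeR adjusted p = 0.00202), from 2.3 to 3.32 CPM in Saline to 6.85 to 12.1 CPM in MPTP libraries, and the other 13 were not called. Among 14 genes of potassium and acid-base transport, carbonic anhydrase 2 (Car2) fell by 1.22 (SE 0.178, adjusted p = 0.00257 by edgeR), from 270 to 341 CPM to 105 to 174 CPM, and the other 13 were not called. Among 10 other connexins and pannexins, connexin 32 (Gjb1) fell by 1.19 (SE 0.159, edgeR adjusted p = 0.00184), and Gjc3 was also called lower without Cre- MPTP replicate 1 (-0.79). Car2, Gjb1 and Gjc3 are known from oligodendrocytes, and the summed level of 6 oligodendrocyte markers was 12500 to 17200 CPM in Cre- Saline, 9170 to 11800 CPM in Cre- MPTP, 15100 to 16900 CPM in Cre+ Saline and 11100 to 14400 CPM in Cre+ MPTP libraries. Of these markers 2 (Cnp and Mog) were called lower in Cre- MPTP, none was at 0 in any library, and their part in the connexin and Car2 results was not tested.

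Glycolysis and lactate export, the pathway of Aldoc, had 0 of 17 genes called by edgeR with MPTP in Cre- mice. At an unadjusted p under 0.05 there were 4, against 15.0% of all genes. DESeq2 over all libraries called 1 (5.87% of all genes) and limma voom 2 (13.6%), and the median log2 fold change was -0.22. The smallest p was that of the glucose transporter Slc2a1 (0.78, adjusted p = 0.0591), which with Eno1 passed without Cre- MPTP replicate 1 (0.44 and -0.34). The folate enzymes, the pathway of Aldh1l1, had 0 of 11 genes called by edgeR and a median of 0.17. There were 2 at an unadjusted p under 0.05, 1 by DESeq2 and 2 by limma voom, against the same shares of all genes. Amt of the glycine cleavage system had the smallest p (-0.80, edgeR adjusted p = 0.0631) and passed with Gldc without replicate 1 (-0.56 and -1.01). Among the 22 other genes of resting astrocytes, Cldn10 fell by 1.01 (SE 0.232, edgeR adjusted p = 0.0337), Lcat fell by 0.83 (SE 0.182, adjusted p = 0.0272) and tissue factor (F3) rose by 0.83 (SE 0.201, adjusted p = 0.0433). With total counts in place of TMM, F3 was still called and Cldn10 (edgeR adjusted p = 0.0764) and Lcat (0.0654) were not. The 3 calls were made in 3, 6 and 3 of the 13 fits with 1 library left out, with the same direction throughout. Without Cre- MPTP replicate 1, 9 of the 22 were called lower and 2 higher, against 4.25% and 5.14% of all genes. The largest fall was that of Btbd17 (-1.24), and the median went from -0.05 to -0.30.

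Of 12 genes of reactive astrocytes, measured in the same libraries, 9 rose with MPTP in Cre- mice, against 2.23% of all genes tested. The list median was 3.43. This list includes genes that the study examined in these mice, so it is not independent evidence of direction. Gfap rose by 2.60 (SE 0.354, edgeR adjusted p = 0.00202), from 292 to 363 CPM in Saline to 1240 to 3170 CPM in MPTP libraries, while Glul and Slc1a3 in the same libraries had log2 fold changes of -0.26 each. Serpina3n (4.66), Cp (2.87) and Lcn2 (9.67, from under 1 CPM) rose as well. Neutrophil marker genes rose in the same group, with a summed level of 7.29 to 50.2 CPM against 0.119 to 0.767 CPM in Cre- Saline, and their part in the list's values was not tested.

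In the comparison of Cre+ MPTP with Cre- MPTP, 3 of the 104 genes of the 7 lists were higher and 1 was lower, against 0.517% and 1.03% of all genes tested. Slc38a5 (2.53), Car2 (0.85) and Gjb1 (0.79) were higher and Trpv4 (-1.24) lower in Cre+ MPTP midbrain, with edgeR adjusted p-values of 0.0072 to 0.0278. Without Cre- MPTP replicate 1, 11 were higher and 3 lower, against 1.25% and 1.93% of all genes, among them Slc38a3 (0.47), Gjc3 (0.63), Cldn10 (0.60) and Slc7a10 (0.59). Of the reactive genes 6 were lower with all libraries, led by Gfap (-2.20) and Cp (-1.74), with Serpina3n (-2.74) and Lcn2 (-3.39). None of the 116 genes of the 8 lists was called with MPTP in Cre+ mice, between genotypes in Saline or in the interaction, by edgeR. At an unadjusted p under 0.05 there were 11, 0 and 25 in this order, against 3.47%, 0.909% and 5.76% of all genes. DESeq2 over all libraries called 2, 0 and 6 of them, against 0.429%, 0.0103% and 1.15%. Limma voom called 3, 0 and 22, against 1.52%, 0.0155% and 3.56%. With MPTP in Cre+ mice the unadjusted differences included Lcn2 (5.93, edgeR adjusted p = 0.103), which passed without Cre- MPTP replicate 1 (0.0318).

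**Figure D5:**
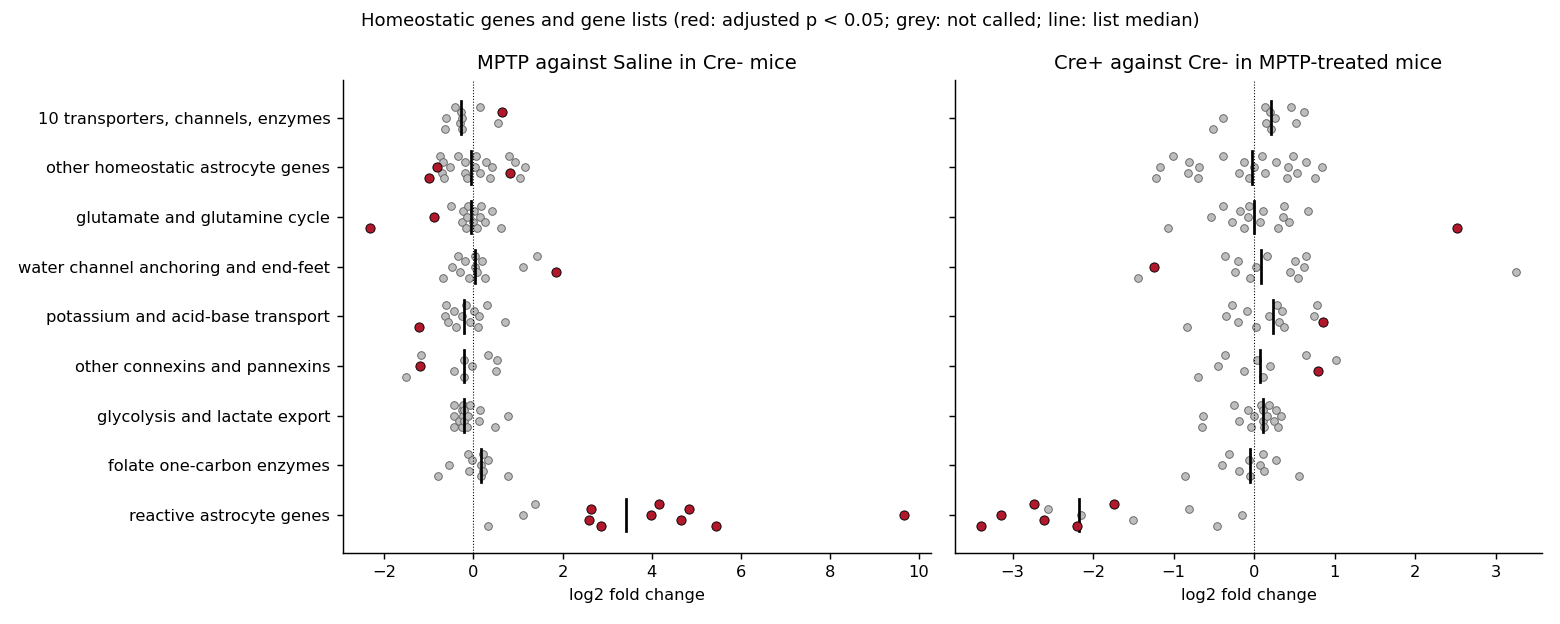
Log2 fold changes (x axis) of the 10 homeostatic genes and of the genes of 8 lists (rows), for MPTP against Saline in Cre- mice (left) and Cre+ against Cre- in MPTP-treated mice (right). Red points passed an adjusted p of 0.05, grey points did not, and the vertical line is the median of each list: -0.27 and 0.20 for the 10 genes, 3.43 and -2.17 for the reactive genes.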

How the data were processed

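Total RNA from 13 midbrains, each from a different mouse, was sequenced after stranded library preparation. Per the labels and the submitters' processing notes, the authors trimmed reads (Trimmomatic 0.36), aligned them to GRCm38 (STAR 2.5.2b) and deposited raw counts per gene from featureCounts (Subread 1.5.2); the strand setting is not given in the sources used here. Gene names came from GENCODE M21 by identifier (49056 of 49315). Genes that reached 10 counts in 3 or more libraries (19360) were scaled by TMM and tested with edgeR 4.0.16 (R 4.3.3) quasi-likelihood tests, with 1 term per group over all 13 libraries, 5 contrasts, Benjamini-Hochberg adjustment over all genes tested and a threshold of 0.05. The SE is the absolute log2 fold change over the root of the F value. Groups came from the labels, and groups were called not overlapping when all CPM of one lay above all of the other. Each member was reported in every comparison; list genes were named when called (up to the 4 with the smallest adjusted p of a list) or, where none was, for the smallest p, and the 5 genes most like the members by their r; some genes that this rule names are not reported here. List genes named for their values without, or in, Cre- MPTP replicate 1, and the ratios within libraries, were chosen after the values were seen. The 10 genes, the lists and the tests were chosen with earlier results of these data known. Fits were tested on simulated data, for MPTP against Saline in Cre- mice, with 200 of 19360 genes changed. There edgeR found 131 of the 200 and wrongly called 8 unchanged genes. Of its finds 18 were 2-fold, 53 were 4-fold and 60 were 8-fold changes, so small changes were often missed. The wrong calls numbered 47 for DESeq2, which found 150 of the 200. Each gene had the same dispersion in every simulated library, so none stood apart as Cre- MPTP replicate 1 did. How the fits behave with such a library was not tested by simulation. Depth was 11489150 to 29397278 counts per library. No 2 replicates were the same library (chi-square per degree of freedom 6.47 to 289 over 15 pairs). Mouse numbers did not pair the libraries. Alternatives used DESeq2 1.42.0, limma 3.58.1 voom with quality weights, other filters, scaling (total counts added after seeing the data) and sample sets, and left out each library.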

Additional observations from a re-analysis of the deposited data

Results flagged for a closer look

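The Cre+ MPTP group, the one group with 4 libraries, was looked at in TMM-scaled CPM. There 3 of the 10 genes had a library that lay far from the other 3, by a gap of over 0.829 of the group's range. Chance gives this in about 1 of 20 groups, and 10 were looked at. These 10 share the same 4 libraries and are not independent, so the number of flags cannot be set against chance. Aqp4 had 312.9 CPM in Cre+ MPTP replicate 2 (gap 0.913 of the range), and Gja1 had 298.4 CPM in the same library (0.907). Aldh1l1 had 110.6 CPM in Cre+ MPTP replicate 3 (0.944). In TPM, Cre+ MPTP replicates 1 to 4 had 299.6, 327.5, 312.1 and 287.2 for Gja1 and 70.88, 68.91, 87.56 and 66.78 for Aldh1l1. Their gaps on that scale were under 0.829 of the range. Aqp4 had 140.8, 209.8, 141.1 and 136.8 TPM, with replicate 2 still far from the others. The same Cre+ MPTP replicate 2 was the highest of its group for Gfap (655 CPM) and Lcn2 (153 CPM).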

How the results depend on the processing

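Each group held 3 or 4 mice, each of the 10 genes had at least 751 counts in every library, and the values of Cre- MPTP replicate 1 depended on the scaling (its TMM factor was 0.804). Of the 10 genes, 1 was called with MPTP in Cre- mice. This became 2 with a filter of 1 CPM (3.71% of all genes called), with DESeq2 size factors (3.25%) and with DESeq2 over all libraries (5.87%). It was 5 with limma voom (13.6%) and 0 with total counts in place of TMM, an alternative added after seeing the data (2.95%). It was 3 (10% of all genes) when both Cre- MPTP replicate 1 and the Cre+ MPTP library with muscle RNA (replicate 4) were left out. It was 0 with DESeq2 (3.06%) or edgeR (0.6%) on 2 groups and with no filter (1.59%). With 1 library left out it ranged from 0 to 3 (1.61 to 9.38%). With the mouse number as a replicate block it was 0 (2.21%). The block took the list genes called between Cre+ and Cre- MPTP from 10 (1.54%) to 0 (0.0%). It took the log2 value of the Slc1a2 interaction, which was not called, to 0.0055. Same-numbered libraries did not deviate together (r from -0.18 to 0.18, 3 of 18 pairs over 0.1), so the block says nothing of a shared source. Of the 116 list genes, 17 were called with MPTP in Cre- mice, where 3.18% of all genes were. The count was 7 with edgeR on 2 groups (0.6%), 39 with voom (13.6%) and 34 without both libraries (10%). With 1 library left out it was 12 to 34 (1.61 to 9.38%). In Cre+ mice the count of the 10 genes went from 0 to 1 with DESeq2 on 2 groups (1.73% of all genes) and with voom (1.52%). That of list genes went from 0 to 6 with DESeq2 on 2 groups, 2 with DESeq2 over all libraries (0.429%) and 3 with voom. It was 1 with no filter (0.0252%), 1 with both libraries out (0.198%) and 0 to 1 with 1 left out (0.0 to 0.166%). Between Cre+ and Cre- MPTP the count of the 10 went from 0 to 2 with DESeq2 over all libraries (4.31% of all genes) and with voom (6.32%). It was 1 with both out (2.91%) and 0 to 1 with 1 left out (0.212 to 9.51%). That of list genes went from 10 to 20 with DESeq2 over all libraries and 0 with edgeR on 2 groups (0.0%). It was 31 with voom, 19 with both out and 2 to 22 with 1 left out. For the interaction, voom called 1 of the 10 (3.56% of all genes). List genes went from 0 to 6 with DESeq2 (1.15%), 22 with voom and 1 with no filter (0.028%). They were 8 with both out (1.15%) and 0 to 7 with 1 left out (0.0 to 1.03%). The cause of these shifts was not tested. The median r among the 10 genes was 0.126 by Spearman and 0.019 to 0.792 with 1 library left out.

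Directions turned for uncalled log2 fold changes of the 10 genes. With voom these were 0.13 for Slc1a3 (MPTP in Cre- mice), -0.13 for Slc1a2, -0.25 for Aqp4, -0.026 for Glul and -0.0066 for Aldoc (Cre+ against Cre- MPTP), 0.011 for Glul, 0.0095 for Aldoc and 0.088 for Aldh1l1 (genotype in Saline), and -0.037 for Glul and -0.016 for Aldoc (interaction). Without both libraries they were 0.015 for Slc1a3, 0.051 for Aqp4 and 0.014 for Glul in Cre- mice, -0.15 for Slc1a2, -0.15 for Aqp4 and -0.046 for Glul between genotypes under MPTP, and -0.039 for Glul in the interaction. With 1 library left out, ranges crossing 0 in Cre- mice were -0.046 to 0.46 (Slc1a2), -0.46 to 0.0038 (Slc1a3), -0.51 to 0.041 (Aqp4) and -0.42 to 0.0038 (Glul), and in Cre+ mice -0.036 to 0.028 (Slc4a4). Between genotypes under MPTP they were -0.17 to 0.34 (Slc1a2), -0.20 to 0.36 (Aqp4), -0.060 to 0.36 (Glul) and -0.026 to 0.40 (Aldoc). In Saline they were -0.065 to 0.26 (Kcnj10), -0.015 to 0.15 (Gjb6), -0.040 to 0.024 (Glul), -0.078 to 0.0027 (Aldoc), -0.093 to 0.12 (Aldh1l1) and -0.052 to 0.27 (Slc4a4), and in the interaction -0.35 to 0.15 (Slc1a2), -0.52 to 0.022 (Aqp4) and -0.048 to 0.37 (Glul).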
